A study of Mus musculus with 3 samples.

Results

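WNT ligands are secreted, lipid-modified signalling proteins, and 9 of their genes were followed here by symbol among the 32285 genes of the count tables: Wnt2b, Wnt3, Wnt3a, Wnt5a, Wnt5b, Wnt6, Wnt7b, Wnt8a and Wnt11. The other 10 WNT ligand genes of the mouse were used as a comparison. The study profiled single cells of untreated mouse embryos of the ARC strain during gastrulation in 3 droplet libraries, 1 for each group: whole embryos at E7.0 (embryonic day 7.0), whole embryos at E7.25, and, at E7.5, only the dissected posterior, called E7.5 posterior below. The labels give no genetic change or treatment for any of the 3 groups, and how many embryos were pooled is not given in the sources used here. Each group is 1 library, so no test was run. Stage and library cannot be told apart, and at E7.5 neither can the dissected region.

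In gastrulation the epiblast gives rise to mesoderm and endoderm by way of the primitive streak. WNT ligands bind Frizzled receptors: with the co-receptors Lrp5 and Lrp6 they stabilise beta-catenin, which acts with TCF/LEF factors, and with Ror receptors they signal without beta-catenin on cell polarity and movement. In the mouse, Wnt3 is required for the primitive streak to form, Wnt3a for posterior mesoderm and the tail bud, and Wnt5a for outgrowth of the body axis. Porcn adds the lipid to WNT proteins and Wls carries them to the cell surface.

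A cell was kept if it had at least 1000 detected genes and no more than 10% mitochondrial molecules. This left 7941 cells in the E7.0 library, 5194 in the E7.25 library and 8438 in the E7.5 posterior library. They hold 108350108, 47672673 and 87940979 unique molecular identifiers (UMIs, each standing for 1 captured RNA molecule), with medians of 11295, 8298 and 9254.5 per cell. Between 8 and 22 kept cell barcodes recur in any pair of libraries. Levels are UMIs of a gene per 1000000 UMIs of all genes (CPM). The protocol tags the 3' end of each RNA, so CPM is not scaled by gene length. Intervals are exact at 95% and cover counting error only. Where a count is 0, the limit given is what 3 UMIs, or 3 cells for a share of cells, would make. The streak gene T (brachyury) stood at 98.1, 141 and 223 CPM over whole libraries, in order of stage.

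Cells were grouped into 20 clusters without any WNT ligand among the genes used, and clusters were named by likeness to marker lists. Most clusters come mainly from 1 library: the nascent mesoderm-like and primitive streak-like cells are nearly all from E7.0, cluster 6 from E7.25, and the caudal epiblast-like cells, the presomitic paraxial mesoderm-like cells and cluster 4 from E7.5 posterior. Clusters 4 and 6 have mesoderm markers of several classes (Mesp1 at 872 CPM in cluster 4 at E7.5 posterior and 915 CPM in cluster 6 at E7.25) and keep their numbers. A defining marker was present under each of the names that follow, and markers of the remaining names are not given here. T stood at 232 CPM in primitive streak-like cells at E7.0, the caudal epiblast gene Nkx1-2 at 72.0 CPM in caudal epiblast-like cells at E7.5 posterior, the trophoblast gene Elf5 at 274 CPM (E7.25) and 269.9 CPM (E7.0) in trophoblast-like cells, and the visceral endoderm gene Ttr between 3960 and 4310 CPM in visceral endoderm-like cells of the 3 libraries. A difference between libraries within a class can come from how the clusters fell.

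In the GRCm38 genome with GENCODE release M21 the ligand genes other than Wnt8a lie at these places: Wnt2b at chr3:104945272-104961921, Wnt3 at chr11:103774150-103817957, Wnt3a at chr11:59248033-59290752, Wnt5a at chr14:28504750-28527448, Wnt5b at chr6:119432531-119544347, Wnt6 at chr1:74771892-74785322, Wnt7b at chr15:85535437-85582473 and Wnt11 at chr7:98835112-98855195. Of the 9, 3 neighbour another WNT ligand gene: Wnt9b lies 24329 bases from Wnt3, Wnt9a 16176 bases from Wnt3a, and Wnt10a 6194 bases from Wnt6. Opposite-strand genes overlap Wnt5a (Gm2670), Wnt5b (Fbxl14), Wnt6 (Gm29539), Wnt7b (AU022754) and Wnt11 (Gm8398), and Gm43846 lies within Wnt2b on its own strand. The sources used here do not say whether strand was used in counting.

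RefSeq promoters on GRCm38.p6 were examined for 6 of the 9 ligands: Wnt2b, Wnt3, Wnt3a, Wnt5b, Wnt6 and Wnt11. The 250 bases before the annotated start are shown 5′ to 3′ for Wnt3, Wnt3a and Wnt6, because these 3 ligands differ in where they were found: Wnt3 was highest at E7.0 in streak-like and visceral endoderm-like cells, most Wnt3a UMIs of E7.5 posterior were in caudal epiblast-like cells, and most Wnt6 UMIs of E7.0 were in trophoblast-like cells. Capitals mark CG dinucleotides. Wnt3 is chr11:103773925-103774174 on the plus strand, Wnt3a is chr11:59290752-59291001 on the minus strand and Wnt6 is chr1:74771642-74771891 on the plus strand.
Wnt3: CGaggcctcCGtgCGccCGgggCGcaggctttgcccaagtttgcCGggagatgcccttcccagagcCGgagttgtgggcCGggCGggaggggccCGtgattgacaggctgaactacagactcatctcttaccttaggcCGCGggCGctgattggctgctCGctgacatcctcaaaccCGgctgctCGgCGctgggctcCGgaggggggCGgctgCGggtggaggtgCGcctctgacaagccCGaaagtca
Wnt3a: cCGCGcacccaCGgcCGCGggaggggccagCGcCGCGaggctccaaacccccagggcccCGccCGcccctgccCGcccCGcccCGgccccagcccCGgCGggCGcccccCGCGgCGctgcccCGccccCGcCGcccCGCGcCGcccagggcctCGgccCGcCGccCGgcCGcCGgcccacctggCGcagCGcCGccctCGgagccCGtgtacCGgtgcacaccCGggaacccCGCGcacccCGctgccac
Wnt6: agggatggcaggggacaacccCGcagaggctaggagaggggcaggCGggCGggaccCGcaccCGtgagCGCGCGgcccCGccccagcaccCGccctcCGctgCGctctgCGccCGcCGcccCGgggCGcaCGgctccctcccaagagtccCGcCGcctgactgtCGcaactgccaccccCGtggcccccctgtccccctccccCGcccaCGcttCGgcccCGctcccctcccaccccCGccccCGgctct
CG dinucleotides number 22 in the Wnt3 stretch, 41 in Wnt3a and 28 in Wnt6, against a median of 6 over the same stretch of all 32851 RefSeq promoters. The TCF/LEF motif CTTTGAT, the T-box motif TCACACCT and the TATA motif TATAAA were sought on both strands from 250 bases before to 50 after the start. None of the 3 motifs is in these windows of Wnt3, Wnt3a, Wnt6 or Wnt2b. CTTTGAT is in 1 of the 3 Wnt5b promoters, and CTTTGAT and TATAAA are in 1 of the 2 Wnt11 promoters. Over all promoters, 3.73% hold CTTTGAT, 1.28% TCACACCT and 13.6% TATAAA.

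The ligands differed in when they were most abundant. Wnt3 was highest at E7.0, Wnt6 and Wnt7b at E7.25, and Wnt3a and Wnt8a at E7.5 posterior, while Wnt2b, Wnt5a and Wnt5b varied less than 2-fold. From E7.0 through E7.25 to E7.5 posterior, Wnt3 stood at 24.9, 11.6 and 10.5 CPM. Wnt3a stood at 1.12, 1.97 and 6.10 CPM, with intervals that do not overlap, and Wnt8a at 4.20, 4.68 and 11.8 CPM. For Wnt8a the intervals of E7.0 and E7.25 overlap and E7.5 posterior stands above both.

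Wnt6 stood at 2.08, 9.42 and 5.62 CPM and Wnt7b at 1.37, 12.5 and 0.250 CPM in the same order, each with no overlap between libraries. Wnt5a stood at 13.2, 14.0 and 16.98 CPM and Wnt5b at 7.72, 8.52 and 11.8 CPM, where only E7.5 posterior is clear of the other libraries. The level of Wnt2b was 2.47, 2.03 and 2.13 CPM, with all 3 intervals overlapping. Wnt11, a ligand known for signalling without beta-catenin, had 55, 15 and 12 UMIs in all, or 0.508, 0.315 and 0.136 CPM, too few to place it in a lineage.

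**Figure D1:**
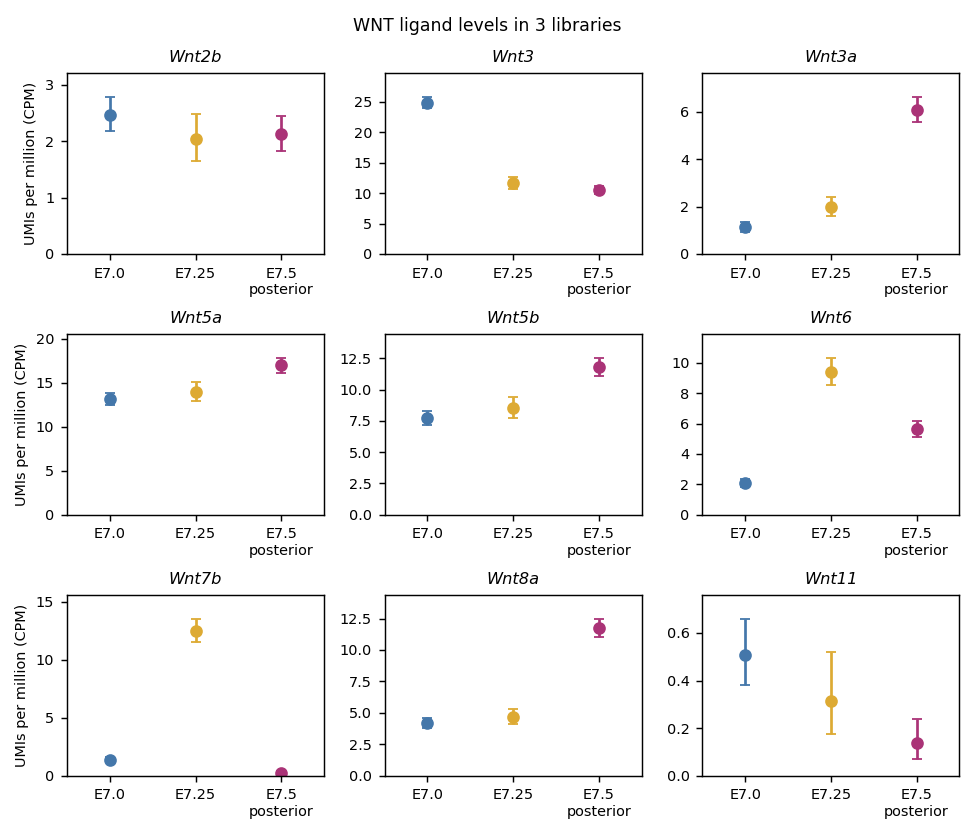
Level of each WNT ligand in 3 libraries, in CPM (vertical axis from 0 in each panel). Points are single libraries and bars are exact 95% Poisson intervals that cover counting error only. Wnt3 is highest at E7.0 (24.9 CPM), Wnt6 and Wnt7b at E7.25 (9.42 and 12.5 CPM), and Wnt3a and Wnt8a at E7.5 posterior (6.10 and 11.8 CPM).

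In E7.25 against E7.0, 2 of the 8 ligands at 1 CPM or more in either library were at least 2-fold higher and 1 was at least 2-fold lower. Over all 12618 genes past the same minimum, 6.90% were higher and 1.85% lower (8.75% in either direction), with a median log2 ratio of 0.19. Wnt7b had a log2 ratio of 3.19 (95% interval 2.93 to 3.46), Wnt6 of 2.18 (1.95 to 2.42) and Wnt3 of -1.10 (-1.23 to -0.96). With trophoblast-like and visceral endoderm-like cells left out, the Wnt3 ratio was -0.86, inside the 2-fold limit, and that of Wnt6 was 3.07.

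In E7.5 posterior against E7.25, 2 of 8 ligands were at least 2-fold higher and 1 was at least 2-fold lower, where 1.64% and 5.83% of 12717 genes were (7.46% in either direction). Wnt3a had a log2 ratio of 1.63 (1.31 to 1.96), Wnt8a of 1.33 (1.12 to 1.55) and Wnt7b of -5.64 (-6.33 to -5.03). Wnt6 had a ratio of -0.75 in all cells and of 0.45 once both of those extraembryonic classes were left out, so its direction rests on those cells. In E7.5 posterior against E7.0, 3 of 8 were at least 2-fold higher (Wnt3a, Wnt8a and Wnt6, with log2 ratios of 2.45, 1.49 and 1.44) and 2 at least 2-fold lower (Wnt7b at -2.45 and Wnt3 at -1.24), where 2.79% and 1.59% of 12455 genes were (4.38% in either direction). Leaving out the same extraembryonic classes gave -0.78 for Wnt7b, inside the 2-fold limit, and 3.52 for Wnt6. The 3 comparisons share libraries and are not independent of each other.

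Cell classes separated the ligands further. Primitive streak-like cells at E7.0 and caudal epiblast-like cells at E7.5 posterior held most Wnt3a and Wnt8a. At E7.25, where those 2 classes have few cells, the mesoderm classes held 64.9% of the Wnt3a UMIs, against 39.5% of the UMIs of all genes. Most of that was in cluster 6, which is unnamed but counted as mesoderm, with 57.4% of the Wnt3a UMIs. Caudal epiblast-like cells that separate when E7.25 is clustered by itself also had Wnt3a. Their part in cluster 6 was not examined, so these shares do not place Wnt3a in mesoderm at E7.25. For Wnt8a, the mesoderm classes held 41.7% of the UMIs, near their 39.5% of all UMIs. Epiblast-like cells held more of Wnt8a, at 48.0%. Mesoderm held most Wnt5a and Wnt2b in every library, trophoblast-like cells held most Wnt7b and Wnt6 at E7.0 and E7.25, and Wnt3 and Wnt5b were spread over streak and mesoderm, Wnt3 with visceral endoderm-like cells as well. The 9 ligands summed to 15.1 CPM in epiblast-like cells at E7.0, against 93.3 CPM in primitive streak-like and 86.7 CPM in nascent mesoderm-like cells.

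**Figure D2:**
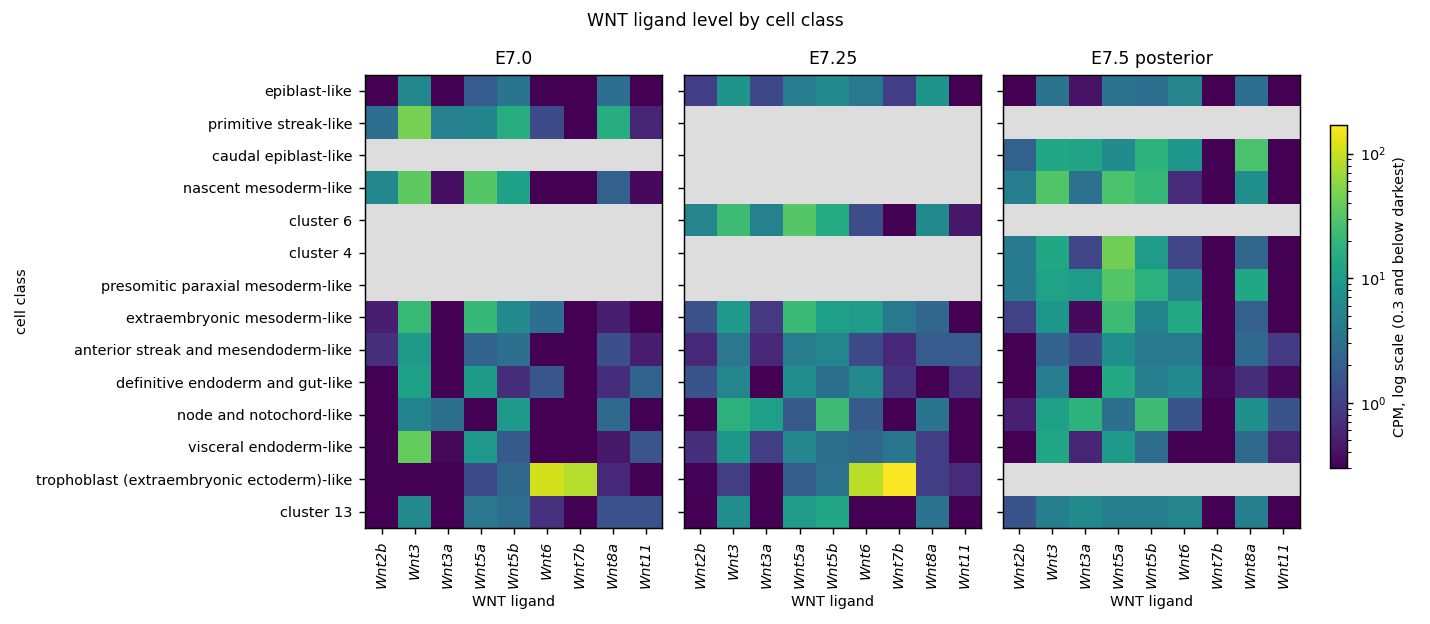
Level of each WNT ligand (columns) by cell class (rows) in the 3 libraries, as CPM on a log colour scale with values of 0.3 CPM or less in the darkest colour. Grey marks classes with under 50 cells in a library. Wnt6 and Wnt7b are brightest in trophoblast-like cells (109 and 84.2 CPM at E7.0), Wnt5a in mesoderm rows and Wnt8a in primitive streak-like (15.6 CPM at E7.0) and caudal epiblast-like rows (27.3 CPM at E7.5 posterior).

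Wnt3, the ligand needed for streak formation, was led at E7.0 by primitive streak-like cells at 46.7 CPM (95% interval 43.5 to 49.99), visceral endoderm-like cells at 37.8 CPM (33.9 to 42.1) and nascent mesoderm-like cells at 34.9 CPM (33.0 to 37.0). The intervals of visceral endoderm-like and nascent mesoderm-like cells overlap and that of the streak-like cells lies above both. Epiblast-like cells stood at 5.75 CPM and trophoblast-like cells had 0 Wnt3 UMIs, which allows up to 1.86 CPM. Clustered by itself, the E7.0 library holds 3 large epiblast-like clusters that differ in Wnt3: 27.7 CPM in 730 cells led by Nefl, Cxcl12 and Apela, and 3.81 and 3.68 CPM in clusters of 892 and 518 cells led by Pou3f1 or Slc7a3. In the E7.25 library Wnt3 stood at 23.3 CPM in cluster 6 and 17.8 CPM in node and notochord-like cells, and in E7.5 posterior at 30.6 CPM in nascent mesoderm-like and 13.5 CPM in caudal epiblast-like cells.

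In visceral endoderm-like cells, Wnt3 stood at 37.8, 8.56 and 12.4 CPM in order of stage. E7.25 was thus 2.14 log2 units lower than E7.0 (interval of the log2 ratio -2.53 to -1.77). Different clusters hold most of this class: cluster 11 at E7.0 with 39.4 CPM, cluster 12 at E7.25 with 7.249 CPM, and cluster 11 again at E7.5 posterior with 12.1 CPM. Clustered library by library, the largest visceral endoderm-like cluster of E7.0 stood at 38.8 CPM, the 2 larger clusters of E7.25 at 5.09 and 13.2 CPM, and the largest of E7.5 posterior at 13.8 CPM. Thinned to 5000 UMIs a cell, 4.55% of 748 visceral endoderm-like cells at E7.25 had a Wnt3 UMI (7.39% unthinned; median depth 8231.5 UMIs, 104 shallower cells left out). Of 295 trophoblast-like cells 0 had one (up to 1.02%; median 9295 UMIs), with no overlap, while the 4.76% of 105 haemato-endothelial-like cells of a finer clustering (median 8152 UMIs), the 1.24% of 161 anterior streak and mesendoderm-like cells and the 1.63% of 123 definitive endoderm and gut-like cells have intervals that overlap it. The E7.0 share was 13.9% of 605 visceral endoderm-like cells (29.8% unthinned; median 10176 UMIs, 140 left out), against 0 of 19 haemato-endothelial-like cells (median 11048 UMIs).

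Wnt3a, needed for posterior mesoderm, was in primitive streak-like cells at 5.01 CPM at E7.0. These cells held 71.9% of its UMIs (95% interval 63.0% to 79.7%) against 16.02% of the UMIs of all genes. At E7.5 posterior, caudal epiblast-like cells stood at 12.3 CPM and held 59.3% of the Wnt3a UMIs, presomitic paraxial mesoderm-like cells stood at 9.93 CPM with 26.1%, and node and notochord-like cells had the highest level at 18.1 CPM (12.6 to 25.2) with 6.53%. The node interval overlaps that of the caudal epiblast-like cells. Cluster 7, which makes up the presomitic class, has 21.8% of its 1237 cells among the highest doublet scores, and their part in its values was not tested. Epiblast-like cells at E7.5 posterior stood at 0.405 CPM.

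The E7.25 library gives Wnt3a 57.4% of its UMIs in cluster 6 at 4.84 CPM and 10.7 CPM in node and notochord-like cells, from 6 UMIs there. Clustered by itself, E7.25 separates 475 caudal epiblast-like cells from the epiblast-like ones. In these 475 cells Wnt3a stood at 9.86 CPM and Wnt8a at 25.2 CPM, against 0.334 and 3.56 CPM in the 1043 epiblast-like cells of that clustering. The joint epiblast-like class of E7.25 stood at 1.19 CPM of Wnt3a and 7.95 CPM of Wnt8a. How the 475 cells fall over the joint classes, cluster 6 among them, was not examined.

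Wnt8a, known in the mouse as a ligand of the posterior epiblast and streak, lies at chr18:34542313-34548273. It stood at 15.6 CPM in primitive streak-like cells at E7.0 with 59.6% of its UMIs, and at 27.3 CPM in caudal epiblast-like cells at E7.5 posterior with 68.2%. Presomitic paraxial mesoderm-like cells stood at 13.05 CPM at E7.5 posterior. The ligands differed at E7.0 between 2 clusters of the library taken alone: Wnt3a was at 7.23 CPM in primitive streak-like cells and at 1.25 CPM in a cluster of 730 epiblast-like cells, where Wnt8a was at 14.9 and 13.5 CPM, with overlapping intervals.

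Thinned to 5000 UMIs, Wnt8a was detected in 12.6% of 2304 caudal epiblast-like cells at E7.5 posterior and Wnt3a in 5.51%, against 3 of 300 and 1 of 300 visceral endoderm-like cells. Unthinned shares in the caudal epiblast-like cells were 23.3% and 11.5%. Median depths were 9544 and 7702.5 UMIs, and 135 and 98 shallower cells were left out. Within the caudal epiblast-like cells, Wnt8a was found in 22.8% of the 127 cells with a Wnt3a UMI (95% interval 15.9% to 31.1%) and in 12.03% of the 2177 cells without. Wnt5b was found in 15.7% of the cells with Wnt3a and 8.36% of those without, and Wnt5a in 1.57% and 3.45%, where the intervals overlap. In presomitic paraxial mesoderm-like cells Wnt8a was in 8.62% of 58 cells with Wnt3a and 5.08% of 1064 cells without, also with overlapping intervals. All the cells come from 1 library and are not replicates.

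Wnt5a, which acts through Ror2 and is known for its role in axis elongation, was a ligand of mesoderm in all 3 libraries. Nascent, presomitic and extraembryonic mesoderm-like cells with clusters 4 and 6 held 79.7%, 79.8% and 78.1% of its UMIs in order of stage, and 33.5%, 39.5% and 37.2% of the UMIs of all genes. The leading class for Wnt5a was nascent mesoderm-like at E7.0 (31.7 CPM), cluster 6 at E7.25 (31.9 CPM) and cluster 4 in E7.5 posterior (43.4 CPM). Extraembryonic mesoderm-like cells stood at 20.9, 22.7 and 23.4 CPM in the 3 libraries in order of stage. Primitive streak-like cells at E7.0 stood at 5.30 CPM and caudal epiblast-like cells at E7.5 posterior at 6.42 CPM.

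Clustered alone, E7.5 posterior splits the Wnt5a-rich mesoderm. A cluster of 631 cells led by Phlda2, Foxf1 and Wnt2 stood at 58.0 CPM of Wnt5a and 20.9 CPM of Wnt5b. A cluster of 870 cells led by Myl7, Adrb3 and Tcf15 stood at 32.6 CPM of Wnt5a and 2.82 CPM of Wnt5b. Both ligands were thus higher in the cluster of 631 cells, with intervals that do not overlap. In the other libraries clustered alone, Wnt5b was also lower in a cluster led by Myl7. The clusters set against it there had other leading genes than at E7.5 posterior. At E7.0 a nascent mesoderm-like cluster of 747 cells led by Lefty2 and Mesp1 stood at 17.1 CPM of Wnt5b and 45.6 CPM of Wnt3, against 5.23 and 22.5 CPM in 633 cells led by Myl7 and Foxc2. At E7.25 the cluster of 454 cells led by Mixl1 and Lefty2 stood at 19.7 CPM of Wnt5b and 34.2 CPM of Wnt3, against 6.58 and 15.8 CPM in 677 cells led by Myl7 and Foxc2. None of these 4 pairs of intervals overlaps. In thinned cluster 4, 6.11% of 262 cells with Wnt5a had Wnt5b and 4.79% of 1127 cells without it did, with overlapping intervals. Thinned shares of cells with Wnt5a at E7.0 were 14.3% of nascent mesoderm-like cells (31.4% unthinned) and 3.64% of visceral endoderm-like cells (9.26% unthinned), at median depths of 11855 and 10176 UMIs with 47 and 140 cells left out.

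Wnt5b, a close relative of Wnt5a, was less tied to mesoderm. It stood at 15.7 CPM in primitive streak-like and 11.2 CPM in nascent mesoderm-like cells at E7.0. Node and notochord-like cells led at E7.25 with 23.1 CPM and at E7.5 posterior with 23.8 CPM, although the E7.25 value rests on 13 UMIs. At E7.5 posterior, nascent mesoderm-like cells stood at 20.4 CPM, caudal epiblast-like cells at 18.1 CPM and presomitic paraxial mesoderm-like cells at 17.4 CPM, and the intervals of these 4 classes overlap their neighbours in this order.

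Wnt2b, a ligand that acts through beta-catenin, was low and lay mostly in mesoderm classes. In order of stage, these held 74.6%, 75.3% and 66.8% of its UMIs, against 33.5%, 39.5% and 37.2% of the UMIs of all genes. Nascent mesoderm-like cells at E7.0 stood at 5.79 CPM with 73.5% of its UMIs, cluster 6 at E7.25 at 5.38 CPM with 61.9%, and at E7.5 posterior presomitic paraxial mesoderm-like cells stood at 4.18 CPM, nascent mesoderm-like cells at 4.46 CPM and cluster 4 at 3.98 CPM. The 3 values at E7.5 posterior have overlapping intervals. Outside mesoderm, primitive streak-like cells at E7.0 stood at 3.05 CPM with 19.8% of the Wnt2b UMIs, and caudal epiblast-like cells at E7.5 posterior at 2.13 CPM with 29.4%. These 2 classes together held 16.2% of the UMIs of all genes at E7.0 and 29.5% at E7.5 posterior. Both values lie within the intervals of their Wnt2b share (15.2% to 25.1% and 23.0% to 36.5%). Epiblast-like cells stood at 0.263 CPM at E7.0 and 0.174 CPM at E7.5 posterior. Thinned, 2.73% of 2418 nascent mesoderm-like cells at E7.0 had a Wnt2b UMI (7.63% unthinned), and 0 of 605 visceral endoderm-like cells did, which allows up to 0.496%.

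Wnt7b lay almost wholly in trophoblast-like cells, which are extraembryonic ectoderm by their markers. Their Wnt7b level was 165 CPM at E7.25 (95% interval 151 to 180), with 87.9% of its UMIs, and 84.2 CPM at E7.0 (70.6 to 99.6), with 91.9%. E7.25 was 0.97 log2 units higher than E7.0 within the class (interval 0.70 to 1.26), against 3.19 in whole libraries. Trophoblast-like cells made up 6.01% of the E7.25 library and 1.37% of the E7.0 library. E7.5 posterior had 12 such cells (0.142%) and 22 Wnt7b UMIs in all. With under 50 cells, no level is given for this class at E7.5 posterior. The parts of cell number and of RNA per cell in the whole-library values were not tested.

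Wnt6 shared the trophoblast-like cells, with 88.0 CPM in the E7.25 library and 109 CPM in the E7.0 library, a log2 ratio of -0.31 (-0.59 to -0.03), where whole libraries gave 2.18. Thinned, 36.3% of 295 trophoblast-like cells at E7.25 had a Wnt6 UMI and 55.6% a Wnt7b UMI (54.5% and 74.4% unthinned, 17 cells left out). Of the 105 haemato-endothelial-like cells 0 had either, which allows a share of up to 2.86%, at median depths of 9295 and 8152 UMIs. Unlike Wnt7b, Wnt6 was also found in embryonic and mesodermal classes at the later stages. Extraembryonic mesoderm-like cells stood at 3.05, 9.75 and 14.3 CPM in order of stage, and epiblast-like cells of the joint clustering at 0.150, 3.86 and 5.33 CPM. With the 2 later libraries each clustered alone, the epiblast-like cells given below stood under 1 CPM, so the later epiblast-like levels depend on the clustering.

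Outside the trophoblast-like cells, the later Wnt6 was highest in clusters led by Igfbp3. At E7.5 posterior, clustered alone, 595 cells led by Igfbp3, Alox15 and Id1, which the naming rule called caudal epiblast-like, stood at 29.7 CPM (25.7 to 34.2). A cluster of 799 cells led by Aldh1a2, Hes7 and Tbx6 stood at 9.12 CPM, a cluster of 1536 cells led by Nkx1-2 at 4.92 CPM and 1360 epiblast-like cells at 0.522 CPM, all below it with no overlap. At E7.25, a cluster of 183 cells that is also led by Igfbp3 stood at 25.5 CPM (18.4 to 34.5) and 1043 epiblast-like cells at 0.891 CPM. At E7.5 posterior the Igfbp3-led cells also had 16.1 CPM of Wnt8a and 11.3 CPM of Wnt3a. Among their leading genes, Id1 and Msx1 are known targets of BMP signalling. Igfbp3 is in the marker list of amnion and surface ectoderm and not in that of caudal epiblast, so the caudal epiblast-like name of the 595 cells is uncertain.

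Some Wnt6 and Wnt7b UMIs of E7.25 lie in 2 clusters in which doublet scores are high. Cluster 18 (visceral endoderm-like) had 11.7 CPM of Wnt7b with 66.9% of its 130 cells among the highest doublet scores, and cluster 19 (extraembryonic mesoderm-like) 8.68 CPM with 43.7% of 135 cells. The main visceral endoderm-like cluster of E7.25 had 0.173 CPM of Wnt7b and 0.345 CPM of Wnt6, and extraembryonic mesoderm-like cluster 10 had 0.251 CPM of Wnt7b and 11.6 CPM of Wnt6. The trophoblast gene Elf5 in visceral endoderm-like cells was at 5.06 CPM (E7.25) and 0.226 CPM (E7.0), and in extraembryonic mesoderm-like cells at 5.88 CPM (E7.25) and 0 CPM (E7.0). The part of trophoblast RNA in these values was not tested. Without clusters 18 and 19, trophoblast-like cells held 96.9% of the E7.25 Wnt7b UMIs and 68.4% of those of Wnt6.

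**Figure D3:**
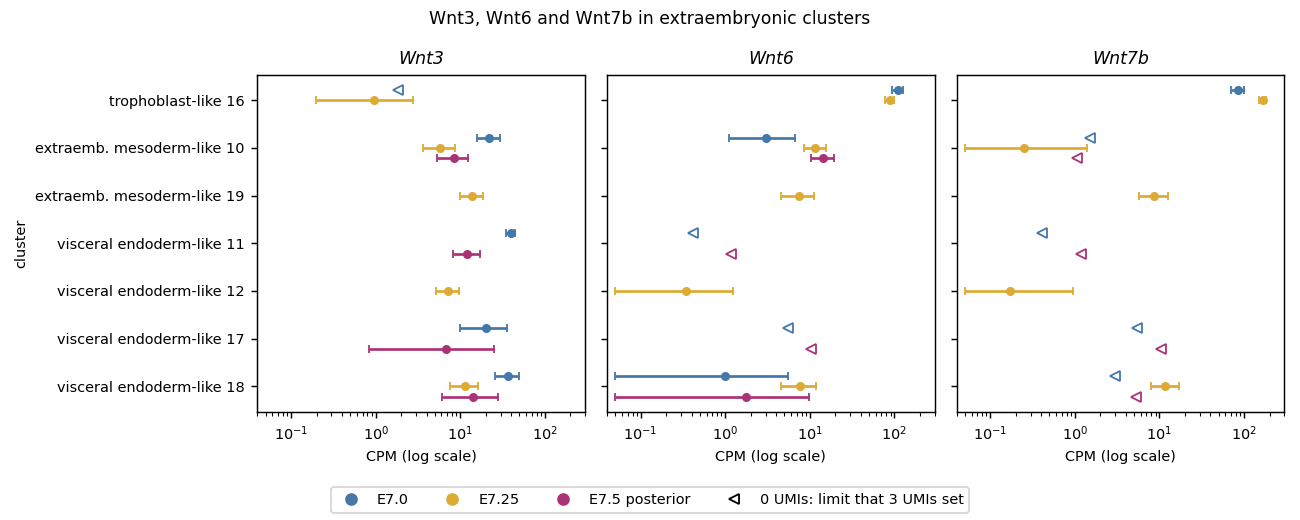
Levels of Wnt3, Wnt6 and Wnt7b (CPM, log axis) in the extraembryonic clusters of the joint clustering, by library. Bars are exact 95% Poisson intervals, drawn from 0.05 CPM upward, and open triangles mark clusters with 0 UMIs at the level that 3 UMIs would give. Wnt7b is at 165 CPM (E7.25) and 84.2 CPM (E7.0) in trophoblast-like cluster 16, and near 0 in clusters 10, 11 and 12, while Wnt3 in visceral endoderm-like cluster 11 is at 12.1 CPM at E7.5 posterior and 39.4 CPM at E7.0.

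The path from epiblast to mesoderm was also followed by which of Sox2 (epiblast), T (streak) and Mesp1 (nascent mesoderm) a cell had at 5000 UMIs. Cells of visceral endoderm-like, trophoblast-like and unnamed clusters were left out first, so the groups still depend on cluster names. Cells with T and no Sox2 could also have Mesp1. Node and notochord-like, anterior streak and mesendoderm-like, and definitive endoderm and gut-like cells stayed in, so the T group is not streak alone. At E7.0, Wnt3a stood at 3.39 CPM in 1711 cells with T and no Sox2, at 0.413 CPM in 1939 cells with Mesp1 alone, and had 0 UMIs in 661 cells with Sox2 and no T. Wnt8a stood at 8.18, 1.86 and 3.33 CPM in these groups and Wnt3 at 34.6, 30.2 and 8.77 CPM. Wnt5a stood at 18.9, 27.0 and 3.63 CPM and Wnt5b at 14.7, 8.97 and 6.05 CPM. Wnt3a, Wnt8a and Wnt5b were thus higher in cells with T and no Sox2 than in cells with Mesp1 alone, and Wnt5a was lower, with no overlap, while the Wnt3 intervals of the 2 groups overlap. The 64 cells with both Sox2 and T stood at 12.5 CPM of Wnt8a and 18.75 CPM of Wnt5b, from 4 and 6 UMIs, with intervals that overlap those of the cells with T and no Sox2.

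At E7.5 posterior the cells with T and no Sox2 stood at 14.9 CPM of Wnt3a, 21.4 CPM of Wnt8a and 23.6 CPM of Wnt5b, against 1.16, 5.49 and 4.05 CPM in cells with Sox2 and no T. Clusters 4 and 6 were left out of these groups because they are unnamed. With both added, an alternative chosen after seeing the data, Wnt3a in the T group of E7.25 stood at 8.67 CPM (969 cells), against 2.99 CPM (402 cells) without them. Wnt5a with Mesp1 alone at E7.5 posterior stood at 33.9 CPM with them and 18.6 CPM without.

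**Figure D4:**
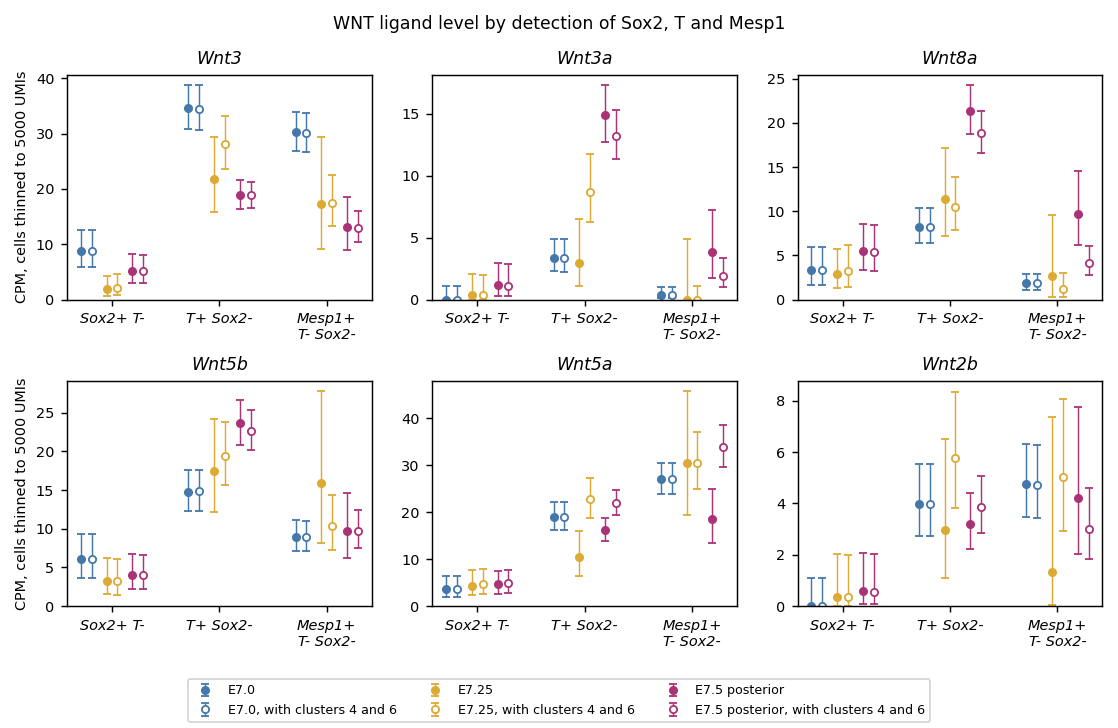
Levels of 6 ligands (CPM from cells thinned to 5000 UMIs, vertical axes from 0) in cells with Sox2 and no T, with T and no Sox2, and with Mesp1 and neither, by library. Filled points leave out clusters 4 and 6 and open points include them, and bars are exact 95% Poisson intervals. Of the 3 groups drawn, Wnt3a and Wnt8a are highest in the T group (14.9 and 21.4 CPM at E7.5 posterior), and Wnt5a at E7.0 is highest with Mesp1 alone (27.0 CPM).

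Across the 30 pairs of class and library with at least 50 cells, the levels of Wnt3a and Wnt8a ran together (Pearson r of log2(CPM + 1) 0.79), as did Wnt6 and Wnt7b (0.78), Wnt3a and Wnt5b (0.75) and Wnt2b and Wnt5a (0.65), while Wnt3 with Wnt6 gave -0.62. The pairs share libraries and cells of related classes, so these are descriptions. Wnt7b stood at 84.2 and 165 CPM in the trophoblast-like pairs of E7.0 and E7.25 and at most at 3.87 CPM in any other pair. Wnt6 was also highest in those trophoblast-like pairs (109 and 88.0 CPM), beside 0 and 0.946 CPM of Wnt3. The r values of Wnt7b, and that of Wnt3 with Wnt6, thus lean on these pairs and were not computed without them. By the same measure the most similar genes were Hes7, Rtl8b and Tmem145 for Wnt3a (r of 0.90, 0.85 and 0.84), Alcam, Fst and Tmem145 for Wnt8a (0.87, 0.85 and 0.83) and Tcim, Alcam and Fam53b for Wnt5b (0.91, 0.86 and 0.86). For Wnt5a they were Pdgfra, Cdk6 and Sept8 (0.89, 0.86 and 0.85) and for Wnt2b Slpi, Chst2 and Mesp2 (0.88, 0.87 and 0.83). Esrrb, Rhox9 and AU018091 were nearest to Wnt7b (0.97 each), and Fjx1, Scoc and Mixl1 to Wnt3 (0.75, 0.74 and 0.70).

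Of the other 10 WNT ligand genes, 2 were at 1 CPM or more. Both are named after their values were seen: Wnt2 stood at 12.1, 7.89 and 11.6 CPM in order of stage, and Wnt4 at 0.535, 2.18 and 1.34 CPM. The remaining 8 were each below 1 CPM in every library, and Wnt1 had 0 UMIs in all of them.

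Most genes that make and receive WNT signals were within 2-fold between libraries. Porcn stood at 3.77, 5.37 and 6.33 CPM in order of stage and Wls at 46.9, 69.3 and 59.0 CPM, both within 2-fold in every comparison. Of the 12 genes of WNT lipid addition, transport and release, 0 of 11 measured were 2-fold different in E7.25 against E7.0, and 1 of 12 was higher in E7.5 posterior against E7.0 (over all genes 2.79% were higher and 1.59% lower, with a median log2 ratio of 0.07). That gene, named after its values were seen, is Notum, which removes the WNT lipid, at 2.17 CPM in E7.5 posterior and 0.249 CPM in E7.0. Among 16 receptors and co-receptors, E7.5 posterior against E7.0 had 2 higher and 0 lower, with a median log2 ratio of 0.37 (2.79% and 1.59% of all genes, median 0.07). They were Fzd10 at 9.13 CPM in E7.5 posterior and 1.09 CPM in E7.0 (log2 ratio 3.07) and Ror1, a receptor for Wnt5a, at 7.13 CPM in E7.5 posterior and 2.69 CPM in E7.0 (1.40). Fzd4, a Frizzled receptor, was 2.34 log2 units higher in E7.25 (9.52 CPM) than in E7.0 (1.88 CPM), and 1.34 lower on the log2 scale in E7.5 posterior (3.75 CPM) than in E7.25. Ptk7, a co-receptor in planar polarity, was at 35.9 CPM in E7.5 posterior and 15.2 CPM in E7.25 (1.24).

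Among WNT response genes 5 of 10 were higher and 0 lower in E7.5 posterior against E7.0, with a median log2 ratio of 0.96, where 2.79% and 1.59% of all genes were, with a median of 0.07. Cdx1, a posterior patterning factor, stood at 14.7 CPM in E7.5 posterior and 1.87 CPM in E7.0 (log2 ratio 2.97), Tbx6, a paraxial mesoderm factor, at 25.6 CPM in E7.5 posterior and 9.64 CPM in E7.0 (1.41) and T at 223 CPM in E7.5 posterior and 98.1 CPM in E7.0 (1.18). The other 2, Cdx4 and Msgn1, stood under 5 CPM and are named after their values were seen. The remaining 5 response genes were within 2-fold, and their values are also given after they were seen. From E7.0 to E7.5 posterior, Axin2 went from 30.1 to 39.4 CPM and Lef1 from 79.1 to 90.7 CPM. Tcf7 went from 18.4 to 20.6 CPM and Nkd1 from 20.02 to 33.3 CPM, while Sp5 was lower, at 129 and then 88.6 CPM. The 2-fold rise was thus not shared by the whole list, and its cause was not tested. In E7.25 against E7.0, 2 of 9 were higher and 1 lower, where 6.90% and 1.85% of all genes were. Cdx1 stood at 5.10 CPM in E7.25 and 1.87 CPM in E7.0 (log2 ratio 1.44) and Cdx4 at 4.26 CPM in E7.25 and 0.0738 CPM in E7.0. Sp5, a direct target of beta-catenin, was lower in E7.25 (48.4 CPM) than in E7.0 (129 CPM), with a log2 ratio of -1.41. R-spondins and their receptors had 0 of 5 measured genes 2-fold different in any comparison, and secreted antagonists had 1 of 6 lower in both later libraries against E7.0 (1.85% of all genes in E7.25 and 1.59% in E7.5 posterior). That gene, Sfrp5, named after its values were seen, stood at 3.34, 1.45 and 0.739 CPM in order of stage. Stage, dissection and the cell mix differ together between these libraries, and their parts were not tested.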

How the data were processed

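The authors deposited UMI counts per gene and barcode, made with Cell Ranger 6.0.1 (per the file headers). They are whole numbers with no scaling. Genome build and strand setting: not given in the sources used here. GENCODE release M21 holds 32158 of the gene identifiers and lacks 127.

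Cells with 1000 or more genes and at most 10% mitochondrial UMIs were kept. The 2000 most variable genes per library, without WNT ligands, gave 30 principal components, and a graph of 15 neighbours was clustered at Leiden resolution 1 (scanpy 1.11.5, leidenalg 0.10.2, seed 0), with no integration. A cluster took a class name with at least 3 markers among its top 100 genes. It stayed numbered where another class had more markers among its top 10 genes. Cells with the highest Scrublet scores, taken at 0.8% per 1000 cells of a library, count as likely doublets. They were kept, and removal was an alternative. Counts were summed per library or per class (50 cells for a level, 100 for a ratio) and scaled to 1000000 UMIs (CPM). Intervals are Poisson, conditional binomial (ratios) and Clopper-Pearson (shares). A call is a ratio of at least 2-fold with 1 CPM in either library. Shares of cells used 5000 UMIs drawn per cell, with shallower cells left out.

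Named genes are the 9 ligands, listed pathway genes at 5 CPM or more with a 2-fold ratio, Porcn and Wls, and the 3 most similar genes of each ligand with 100 UMIs (those of Wnt6 are not reported here). Members, lists and rules were chosen with earlier results of these data known. Scripts were tested on simulated data. Alternatives included TMM scaling in edgeR 4.0.16.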

Additional observations from a re-analysis of the deposited data

Results flagged for a closer look

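Ratios within classes pointed in opposite directions for 3 ligands in E7.25 against E7.0, with intervals on either side of 0. No test of these differences was possible with 1 library per stage, the difference was not tested, and different clusters hold a class in each library. The Wnt3 log2 ratio was 0.48 in epiblast-like cells, and -1.33 in anterior streak and mesendoderm-like, -1.25 in extraembryonic mesoderm-like and -2.14 in visceral endoderm-like cells. The Wnt5a ratio was 1.20 in epiblast-like and -0.62 in visceral endoderm-like cells. The Wnt6 ratio was 4.68 in epiblast-like, 1.68 in extraembryonic mesoderm-like, 1.93 in definitive endoderm and gut-like and 4.48 in visceral endoderm-like cells, the last against 1 UMI at E7.0, and -0.31 in trophoblast-like cells. Of the 21 Wnt6 UMIs in visceral endoderm-like cells at E7.25, 19 lie in cluster 18. With E7.25 clustered by itself, the epiblast-like cells given above stood under 1 CPM of Wnt6, so the epiblast-like ratio depends on the clustering.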

How the results depend on the processing

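Counts of ligands at least 2-fold different stayed within 1.5 times of their value with a minimum of 2000 genes, at most 5% mitochondrial UMIs, the highest doublet scores removed, TMM scaling, the mean of each cell's own CPM, and without clusters 18 and 19 or 13 and 17 (these last chosen after seeing the data). With trophoblast-like and visceral endoderm-like cells left out, 0 ligands instead of 1 were lower in E7.25 against E7.0, and 1 instead of 2 in E7.5 posterior against E7.0. A minimum of 5 CPM left 1 lower in E7.5 posterior against E7.0, and no minimum gave 2 lower in E7.5 posterior against E7.25, with Wnt11 added. TMM moved the median log2 ratio of all genes from 0.19 to -0.01 in E7.25 against E7.0 and turned the direction of Wnt5a to -0.11, of Wnt5b to -0.06 and of Wnt8a to -0.04, none of them 2-fold different. It also moved the share of higher calls over all genes in that comparison from 78.9% to 57.8%, from 21.9% to 35.5% in E7.5 posterior against E7.25 and from 63.7% to 53.4% in E7.5 posterior against E7.0. At most 5% mitochondrial UMIs gave 50.4% in the last of these, and leaving out the 2 extraembryonic classes gave 36.3% in E7.5 posterior against E7.25.

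Class shares moved with the clustering: with each library clustered by itself 15 of 18 shares and 7 of 18 levels left their intervals, since some clusters then took other names. Leiden resolution 2 moved 10 of 16 shares and 7 of 16 levels, removal of the highest doublet scores 6 of 24 shares and 0 of 24 levels, leaving out clusters 18 and 19 5 of 24 shares, and at most 5% mitochondrial UMIs 1 of 24 shares. With each library clustered by itself, the cells named caudal epiblast-like in E7.5 posterior, which are the Igfbp3-led ones, held 13.8% of Wnt3a and 10.2% of Wnt8a. The joint class of that name held 59.3% and 68.2%, so the 2 are not the same cells. Clusters led by Nkx1-2 or Hes7 became unnamed in that clustering. No paired analysis was possible because each group is 1 library, and for the same reason no replicate could be left out. A gene with few UMIs, such as Wnt11, cannot be placed at this depth.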
